A study of Drosophila melanogaster with 2 samples.

Results

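The summits described here are the points of strongest CG7101 binding that lay at or downstream of the start of 1 protein-coding gene, with no start of any other gene nearby. A summit counted when its nearest transcription start site (TSS) belonged to a protein-coding gene, when it lay 0 to 500 bp from that TSS in the direction of transcription, and when no TSS of another gene lay within 500 bp of it. The rule was applied to the summits kept by an irreproducible discovery rate (IDR) filter, which is designed to retain peaks ranked alike between replicates. Which lists the filter compared was not examined here. Of all these IDR summits, 4076 lay within 500 bp of a TSS of any gene, and 541 met the rule (8.34% of the whole IDR list), at 516 genes. Within the IDR list the rule used position alone, and not the strength of a summit or its position in each replicate. The IDR filter is itself designed to select on peak ranks between replicates, and the pooled summits come from the same reads as the replicate summits. Strength, ranks and replicate positions are therefore not independent of how the summits were chosen. Sequence and annotation vary with position. Words are set beside all starts and annotation beside all eligible positions, while GC content is set beside upstream summits only. The same rule turned round gave 1806 upstream summits at 1608 genes, the set compared with the downstream summits throughout. Downstream summits were 23.1% of the 2347 summits at single-gene promoters (95% Clopper-Pearson interval 21.4 to 24.8). In lists of the same length made from the strongest peaks of 1 replicate, the share was 25.7% for replicate 1 and 23.1% for replicate 2.

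The flies were transgenic adult Drosophila melanogaster females of 1 line that stably carried CG7101 with green fluorescent protein (GFP) at its C-terminus, and their age was unknown. Chromatin from whole animals was sonicated and precipitated with an antibody against GFP, then sequenced. There was 1 group with 2 biological replicates, so every comparison below is between sets of summits and not between conditions. Peaks and genes are not replicates, so no p-value is given, and the 95% intervals cover counting error over summits or genes only. The tagged protein stood in for CG7101 itself, a whole animal mixes all tissues, and binding in few cells cannot be told apart from weak binding in many.

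A TSS is where RNA polymerase II begins to copy a gene, and the bases around it form the core promoter. Drosophila core promoters carry short sequence elements: the TATA box, upstream of the TSS; the initiator, at the TSS; Motif 1, bound by the zinc-finger protein M1BP; and the DNA replication-related element (DRE), bound by DREF. Downstream of the TSS lie the 5' untranslated region (5' UTR), which is transcribed but not translated, and often a first intron, where further regulatory DNA can lie.

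The downstream summits fell into a dense group close to the TSS and a thinner tail. The median distance was 55 bp (quartiles 24 and 160). There were 251 summits at 0 to 49 bp, 103 at 50 to 99 bp, 101 at 100 to 299 bp and 86 at 300 to 500 bp. These 4 zones were set after the distances had been seen. Density was counted per Mb of eligible sequence, meaning all positions in the annotated genome at which a summit would have met the rule. It fell from 365 per Mb (exact Poisson interval 321 to 413) at 0 to 49 bp to 151 per Mb (123 to 183), 36.4 per Mb (29.7 to 44.3) and 29.3 per Mb (23.5 to 36.2) in the further zones. At the same distances upstream, density was 666, 530, 332 and 122 per Mb. As a ratio of densities, the upstream excess was smallest in the nearest zone and largest at 100 to 299 bp. In 25-bp steps, density was 667 per Mb in the last 25 bp before the TSS and 409.6 per Mb in the 25 bp that begin at the TSS. It reached 11.3 per Mb at 250 to 274 bp and was 40.9 per Mb at 425 to 449 bp, from 4 and 15 summits.

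**Figure D1:**
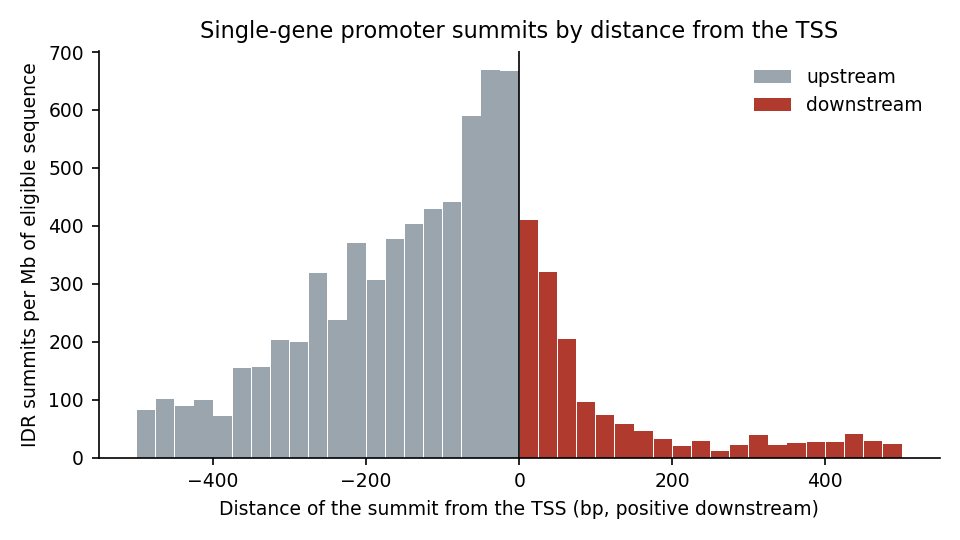
Density of single-gene promoter summits (y axis, IDR summits per Mb of eligible sequence) by distance from the TSS (x axis, bp, 25-bp bars, positive downstream), with upstream bars grey and downstream bars red. Bars near the TSS are the tallest on both sides, and the red bars drop below 100 per Mb from 75 bp on.

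The promoter elements of the nearest summits are shown first, since they were found near the TSS-proximal downstream summits and seldom near the far ones. Each sequence is the gene's sense strand, 5' to 3', from the Release 6 reference assembly (dm6), with the element in capitals. The searched word for Motif 1 was GGTCACACT and that for the DRE was TATCGATA, a palindrome. Words were sought on both strands within 100 bp of the summit, and the genes printed here are among those with the strongest downstream summits under 100 bp from the TSS that had the word on the sense strand. Motif 1 is shown for Merlin (Mer), a tumour suppressor homolog, for the ribosomal protein gene RpL27A, for the RNA-binding protein gene Rnp4F, for puckered (puc), a phosphatase of JNK signalling, for pck, a claudin, and for Cyt-c-p, a cytochrome c.
Mer, chrX:19693493-19693521, minus strand: tctaacggctGGTCACACTgtctatgttt
RpL27A, chr2L:4458330-4458358, minus strand: gccgccgggcGGTCACACTgctacaaccg
Rnp4F, chrX:5322714-5322742, minus strand: attacgcactGGTCACACTgttataacga
puc, chr3R:8105263-8105291, plus strand: agtagcctctGGTCACACTaatcgcgtct
pck, chrX:1470652-1470680, plus strand: actaagtactGGTCACACTgggctcacct
Cyt-c-p, chr2L:16719888-16719916, plus strand: cggtcactctGGTCACACTaattacctat
The centre of the word lay 0 bp from the TSS at RpL27A and 7 bp upstream of it at Mer, written as -7. It lay at -30, -32, -55 and -90 bp at Cyt-c-p, Rnp4F, puc and pck.

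The DRE is shown for the ribosomal protein genes RpS15Aa, RpL26 and RpL36A, for CG2200, for B52, an SR protein of splicing, and for Rnp4F, whose promoter held both elements.
RpS15Aa, chrX:13337696-13337723, minus strand: tccggctaacTATCGATAggcacgttga
RpL26, chr3L:18898851-18898878, plus strand: atgacagtgtTATCGATActagctgaat
CG2200, chrX:13094288-13094315, plus strand: gtgagtttccTATCGATAtcgaagaact
B52, chr3R:13661236-13661263, plus strand: ccgcccaaaaTATCGATAggcgaaaaag
Rnp4F, chrX:5322732-5322759, minus strand: tgcgcacagcTATCGATAttacgcactg
RpL36A, chr2L:8042885-8042912, minus strand: aacgaaaaccTATCGATAgcgcatggct
The centre of the DRE lay at 2.5 bp, downstream of the TSS, at CG2200, and upstream at the other 5 genes, from -4.5 bp at RpS15Aa to -61.5 bp at B52.

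Both elements were found near the TSS-proximal downstream summits and hardly at all near the far ones. Windows of 100 bp to either side of the far summits, or of summits over 1 kb from a TSS, do not reach the TSS. Elements that lie at the TSS could therefore not be counted there, so the contrast is in part set by the search window. No background was counted at the distance of the far summits. The DRE word lay within 100 bp of 35 of the 541 downstream summits (6.47%), against 5.69% of all IDR summits and 2.78% of windows of the same length around all 13830 starts of eligible genes, centred 55 bp downstream. For every word, these start windows reach less far upstream of the TSS than the windows of summits nearer the TSS. They can miss words that the latter include, and the lower quartile of DRE positions near summits under 100 bp was -52.8 bp. It was near 34 of the 354 summits under 100 bp from the TSS (9.60%, interval 6.74 to 13.2) and near 1 of the 86 at 300 to 500 bp (1.16%, 0.0294 to 6.31), the summit of cap-n-collar (cnc), a bZIP transcription factor. Windows moved 500 bp to either side of the nearer summits held it in 0.989%. Upstream summits within 100 bp of the TSS had it in 12.97% (10.7 to 15.5), an interval that overlaps that of the downstream ones. Among the strongest peaks of replicate 2 alone, the DRE share of downstream summits was 3.65%, and among those of replicate 1 alone it was 5.28%.

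Motif 1 followed the same order. It was near 27 of the 541 downstream summits (4.99%), against 2.93% of all IDR summits and 2.54% of all starts. It was near 26 of the 354 under 100 bp (7.34%, 4.85 to 10.6), 1 of 101 at 100 to 299 bp and 0 of 86 at 300 to 500 bp, a count that allows a share of up to 4.20%. Upstream summits within 100 bp had it in 8.22%. It was near 0 of 1759 summits over 1 kb from a TSS. The word's orientation was not part of the rule. In downstream summits under 100 bp, 25 of its 26 occurrences read in the sense direction of the gene (96.2%, 80.4 to 99.9), against 46 of 66 (69.7%, 57.1 to 80.4) near upstream summits within 100 bp. The 2 intervals meet at 80.4%.

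Within the searched windows, the elements lay close to the TSS while the downstream summits lay further in. Near downstream summits under 100 bp, the DRE had a median position of -19 bp from the TSS (quartiles -52.8 and -6), and 35 of its 38 occurrences lay on the 5' side of the summit, with a median of -54 bp from it. Near upstream summits within 100 bp, the DRE lay at a median of -40.5 bp from the TSS and -1.5 bp from the summit. Motif 1 lay at a median of 0 bp from the TSS near the downstream summits and -17 bp near the upstream ones. Its median distance from the summit was -27.5 bp in the former and 23.5 bp in the latter. The rule placed one set of summits downstream and the other upstream, so the distances from the summit are not independent of it. Nor are those from the TSS, since windows of upstream summits reached further upstream of the TSS than those of downstream summits.

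**Figure D2:**
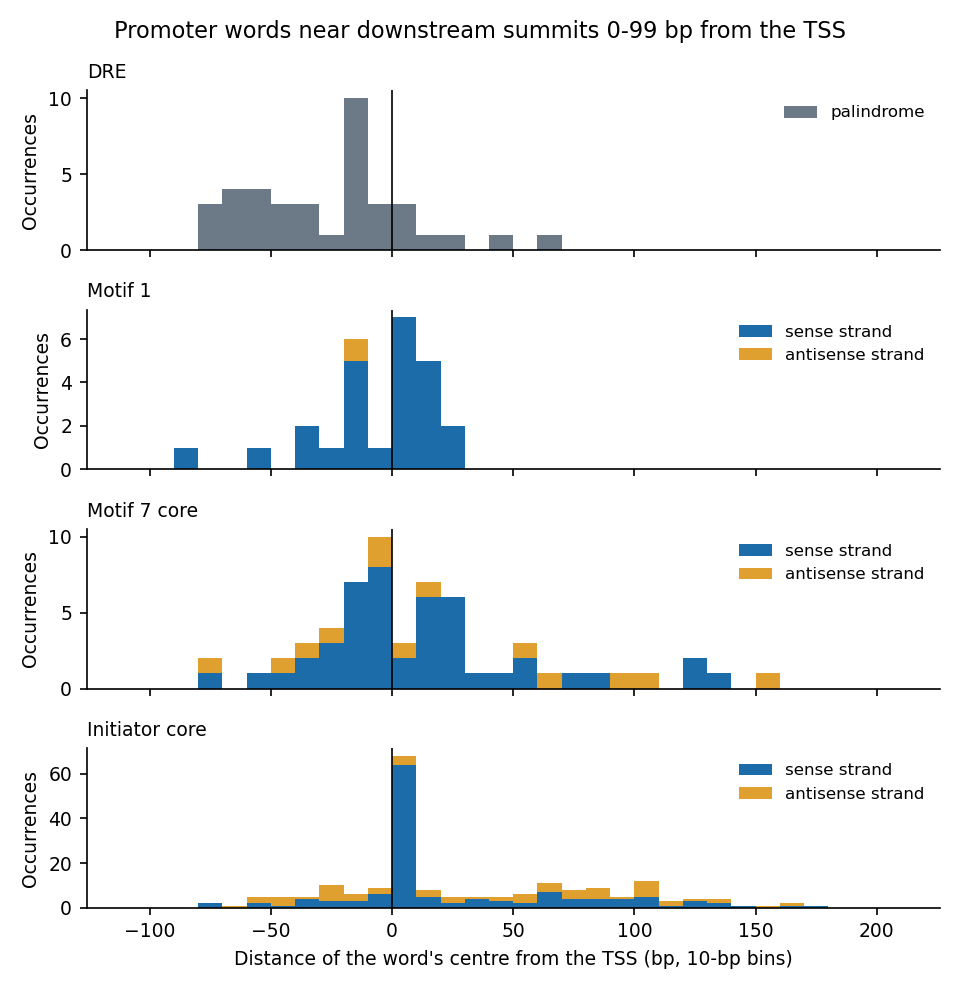
Positions of 4 promoter elements around the TSS near the 354 downstream summits at 0 to 99 bp (x axis, distance of the word's centre from the TSS in bp; y axis, number of occurrences per 10-bp bar), coloured by strand except for the palindromic DRE. DRE occurrences lie mostly upstream of the TSS, 25 of 26 Motif 1 occurrences are on the sense strand, and the initiator core peaks at the TSS.

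Other promoter words were counted in the same way. The Motif 7 core, CANCNCTA, was near 11.6% of downstream summits, against 12.4% of all IDR summits and 7.79% of all starts. It was near 15.0% (11.4 to 19.1) of those under 100 bp, fewer than the 24.3% (21.3 to 27.4) of upstream summits within 100 bp, and near 3.49% of those at 300 to 500 bp. The initiator core, TCAGT, was near 37.5% of downstream summits, against 32.9% of IDR summits and 46.7% of all starts. In those under 100 bp it had 201 occurrences, of which 134 were on the sense strand and 79 had their centre within 10 bp of the TSS. The GAGA factor word, GAGAG, was near 32.3% (28.4 to 36.5) of downstream summits. It was near 24% of IDR summits, 23.5% of all starts and 25.7% (23.7 to 27.8) of upstream summits. Under 100 bp its share was 34.7% (29.8 to 39.96) downstream and 26.8% (23.7 to 30.1) upstream, with intervals that overlap. The TATA word, TATAAA, was near 22.0% of downstream summits, against 34% of IDR summits and 24.3% of all starts. Its share was 18.1% (14.2 to 22.5) under 100 bp and 33.7% (23.9 to 44.7) at 300 to 500 bp. A control palindrome with no factor in mind, AACGTT, was near 5.55% of downstream summits, 4.55% of IDR summits and 4.74% of all starts.

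The BEAF-32 core site CGATA, which the DRE contains, was near 36.6% of downstream summits, against 35.1% of IDR summits and 30.6% of all starts. Under 100 bp it was near 39.3% (34.1 to 44.6), below the 53.1% (49.6 to 56.7) of upstream summits within 100 bp. The other words are given with their share of all IDR summits and of all starts. The E-box CAGCTG was near 14.6% (IDR 10.8%, starts 11.1%), the Motif 6 core GTATNTTT near 8.69% (11.3% and 6.92%) and the E-box CACGTG near 1.85% (2.37% and 2.64%). The downstream promoter element core CGGTT was near 27.5% (19.6% and 30.3%) and the polypyrimidine initiator core CTCTTT near 15.0% (13.9% and 11.3%).

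Initiator sequences are shown, with the core in capitals, for 3 summits under 100 bp from the TSS chosen because the core lay within 3 bp of the TSS: Fas2, a neural cell adhesion molecule, Cln7, homolog of a human lysosomal membrane protein gene, and Eip75B, an ecdysone-induced nuclear receptor.
Fas2, chrX:4206076-4206104, minus strand: ctagcggtgcttTCAGTtacgtttcgacg
Cln7, chr3L:7345172-7345200, minus strand: tgccgcgtcagtTCAGTtcagtccgtcgc
Eip75B, chr3L:17961800-17961828, minus strand: tgagaccgaagcTCAGTcaccgtcgcagt
The summits lay 15, 9 and 20 bp downstream of the TSS at these genes. At Cln7 the capitals mark the copy of the core at -3 bp, and further copies, in lower case, lay at -8 and 2 bp.

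The far summits sat in more AT-rich sequence than the near ones. Strong ones whose surrounding 81 bases touch no annotated exon are shown as examples: those of Eip63F-1, an ecdysone-induced calcium-binding protein gene, and of CG8128.
Eip63F-1, chr3L:3928662-3928742, minus strand: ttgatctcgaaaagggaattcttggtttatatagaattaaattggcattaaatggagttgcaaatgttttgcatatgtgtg
CG8128, chrX:15697949-15698029, plus strand: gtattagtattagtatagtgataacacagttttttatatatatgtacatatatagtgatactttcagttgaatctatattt
Their GC content was 30.9% and 21.0%. Over all downstream summits the median GC content of the 101 bp around the summit fell from 46.5% at 0 to 49 bp to 43.6%, 41.6% and 37.6% in the zones further in. Upstream, the median was 46.5% at the shortest distances, 40.6% at 50 to 99 bp and 30.7% at 100 to 299 bp. The downstream and upstream summits thus had the same median GC content within 50 bp of the TSS, and beyond 100 bp the upstream ones were the more AT-rich. GC content was not measured at eligible positions without a summit. Whether the fall differs from that of all sequence at these distances was not tested.

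A forkhead site core, GTAAACA, the word bound by many forkhead transcription factors, was added after values had been seen. It lay within 100 bp of 43 downstream summits (7.95%), against 8.51% of all IDR summits and 4.84% of all starts. Its share was 5.37% (3.26 to 8.25) under 100 bp, 9.90% at 100 to 299 bp and 16.3% (9.20 to 25.8; 14 of 86) at 300 to 500 bp. The interval for the far summits overlaps that of IDR summits over 1 kb from a TSS (10.3%, 8.91 to 11.8) and that of upstream summits at 300 to 500 bp (6.25%, 3.61 to 9.95). Examples from intronic summits are shown with the word in capitals, on either strand: dbo (diablo, a Kelch-like ubiquitin ligase adaptor) and bchs (blue cheese), an autophagy gene.
dbo, chr3L:15827351-15827377, plus strand: cctgccaattTGTTTACcaattaaagt
bchs, chr2L:5907580-5907606, plus strand: gggagttggaGTAAACAaacaagtgcg
The words lay 76 and -46 bp from the summits. The far summits that had the word had a median signal of 177, and those that lacked it 240.4. The order was the reverse at 100 to 299 bp (264 and 220) and under 100 bp (213 and 207). Over all downstream summits the medians were 212 and 214.

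In all, 419 of the 541 downstream summits lay in a 5' UTR (77.4%, 73.7 to 80.9), 112 in an intron (20.7%) and 10 in a coding exon (1.85%). Where transcripts of a gene differed, a position counted as 5' UTR before coding exon, and as coding exon before intron. The 5' UTR share is thus the highest that the annotation allows and the intron share the lowest, for summits and eligible positions alike. At 0 to 49 bp, 249 of 251 lay in a 5' UTR. At 300 to 500 bp, 70 of 86 lay in an intron (81.4%, 71.6 to 88.98), 12 in a 5' UTR and 4 in a coding exon. Eligible positions, bound or not, lay in a 5' UTR in 89.2% at 0 to 49 bp, against 99.2% (97.2 to 99.9) of the summits there. At 300 to 500 bp they lay in an intron in 31.8%, in a 5' UTR in 14.5% and in a coding exon in 51.5%. The intervals of the far summits lay above the intron share and, at 4.65% (1.28 to 11.5), below the coding exon share of these positions, and that for the 5' UTR (14.0%, 7.42 to 23.1) included theirs. The far intronic summits lay a median of 199.5 bp (quartiles 124.5 and 285) beyond the end of the first exon. The 10 in a coding exon included those of Cyp1, a cyclophilin (signal 327, 64 bp), Top1, topoisomerase I (244, 60 bp), Got2, an aspartate aminotransferase (217, 100 bp), and ens, a microtubule-binding protein (166, 96 bp).

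**Figure D3:**
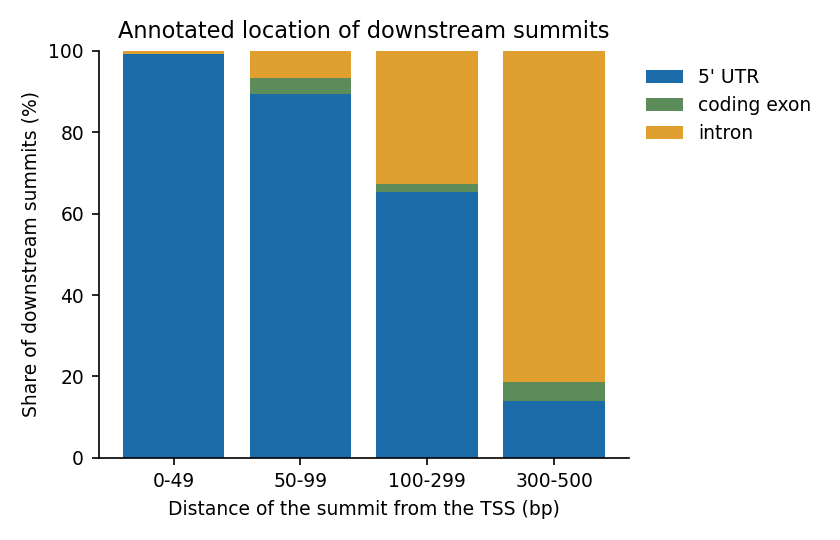
Share of downstream summits (y axis, %) in a 5' UTR, a coding exon or an intron of the gene, by distance from the TSS (x axis, bp). The 5' UTR holds 99.2% at 0 to 49 bp and 14.0% at 300 to 500 bp, where introns hold 81.4%.

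The genes were long and many had several starts. Of the 516 genes, 324 (62.8%) had more than 1 annotated TSS position, against 50.6% of genes with an upstream summit and 27.0% of all 13250 eligible protein-coding genes. Median gene length was 5578 bp, 4773 bp and 2158 bp in the same order. Positions around every start of a gene were eligible, so a gene with several starts could offer more eligible sequence. The excess of such genes over all eligible genes is therefore in part set by the rule, and it was not corrected for this. Another TSS of the same gene lay further downstream within 500 bp of 102 summits (18.9%), so these summits were also upstream of a start. No own TSS lay further downstream for 300 summits. With genes of 1 TSS position only, 194 downstream summits remained, 19.2% of the single-gene summits of such genes.

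Downstream summits had a lower median signal than upstream ones. Signal is the peak strength written by the authors' caller, on a scale that is not stated, and it is compared only within the IDR list. The median was 213 for downstream summits (quartiles 171 and 295, range 142 to 2994), 252 for upstream summits (183 and 426, up to 7594) and 245 for all IDR summits. The 500 strongest IDR summits included 27 of the 541 downstream summits (4.99%) and 161 of the 1806 upstream ones (8.91%), against 7.71% of all IDR summits, and the 25 strongest held 0 downstream. By zone, the downstream medians were 211, 203, 220 and 231 from the TSS outwards. The upstream medians were 212, 244.5, 292 and 267. The medians were alike within 50 bp of the TSS and lay further apart at 100 to 299 bp. A signal of at least 500 was reached by 7.06% of downstream summits under 100 bp and by 20.9% of those at 300 to 500 bp, against 11.6% and 23.4% upstream. Peaks were wider, with a median of 407 bp against 372 bp for upstream summits and 350 bp for all IDR summits. Of the peaks with a summit under 100 bp downstream, 343 of 354 also covered the TSS.

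The strongest downstream summit was that of ph-p (polyhomeotic proximal, a subunit of Polycomb repressive complex 1), with a signal of 2994 at 441 bp. It ranked 34 in the IDR list, 34 in replicate 1 and 33 in replicate 2. Its summit lay at 438 bp in replicate 1, but the strongest replicate 2 peak overlapping it had its summit at 1041 bp. Next came PNPase, a polynucleotide phosphorylase of mitochondria (2150, at 70 bp), CG9399 (2137, 62 bp), GstE13, a glutathione S-transferase (2058, 74 bp), and Adk3, annotated as an adenosine kinase (1581, 16 bp). Of these 5, only ph-p lay beyond 100 bp.

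Of the 25 strongest, 9 were under 100 bp from the TSS and 11 at 300 to 500 bp, of which 9 were intronic. Those at 300 to 500 bp included Eip63F-1 (1438, 461 bp), CG8128 (1336, 484 bp), hng3 (1308, 446 bp), CG6785 (1299, 342 bp) and scramb2, a phospholipid scramblase gene (1195, 365 bp). They also included dbo (1097, 400 bp), Ptp4E, a receptor tyrosine phosphatase (1064, 399 bp), CG31612 (977, 494 bp) and egh (egghead), a glycosphingolipid mannosyltransferase (975, 358 bp). Between the zones lay rudhira (1333, 265 bp), CAH3, a carbonic anhydrase (1247, 133 bp), sqh, the myosin regulatory light chain (1207, 119 bp), CG18622 (1135, 209 bp) and Cftr, a chloride channel homolog (1046, 191 bp). Closest to the TSS lay RpL24 (1218, 0 bp), CG5335 (1143, 6 bp), RpL30 (1028, 16 bp), scny, a ubiquitin-specific protease (967, 25 bp), and CG17982 (1136, 84 bp). All 25 ranked 498 or better in replicate 1 and 643 or better in replicate 2.

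Position was measured again in each replicate, by the strongest replicate peak that overlapped the pooled interval by at least 1 bp. Pooled summits that overlapped the same replicate peak shared it. All 541 summits had such a peak in replicate 2 and 540 in replicate 1, where that of Cat (catalase) had none. The summit was downstream of the TSS in replicate 1 for 491 (90.8%) and in replicate 2 for 452 (83.5%). It was downstream in both for 420 (77.6%, 73.9 to 81.1), against 87.7% of all 2347 single-gene summits that kept their side and 90.7% of upstream ones. The share rose with distance, from 58.2% (51.8 to 64.3) at 0 to 49 bp to 90.3%, 94.1% and 100% of 86 at 300 to 500 bp. Far summits could hardly change side, since only 1 of the 86 peaks at 300 to 500 bp covered the TSS. The median gap between replicate summits was 24 bp in both the nearest and the farthest zone. Upstream summits within 50 bp of the TSS kept their side in 71.5% (67.1 to 75.7). Summits at 0 to 49 bp and the peaks matched to them in a replicate were therefore on different sides of the TSS more often than in any zone further in.

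The replicate summits were a median of 26 bp apart (quartiles 11 and 59), against 24 bp for upstream summits. This exceeds the median distance of the nearest zone from the TSS, 21 bp. For 18 summits the matched peak had its summit upstream in both replicates, and the pooled distance of these was 88 bp at most. At some of these genes the matched peaks lay near a separate, stronger upstream summit of the pooled list. NAT1, at 28 bp, had matched summits at -173 and -161 bp and an upstream pooled summit at -181 bp. At isoQC, at 55 bp, they were -161 and -84 bp, and -145 bp. Whether such peaks re-measure the downstream summit was not tested. The strongest of the 18 was that of scny, at 25 bp in the pooled list and at -17 and -12 bp in the replicates. The largest gaps after ph-p were at CG12535 (1063 and 570 bp), Synd, syndapin (90 and 456 bp), Gpo1, a glycerol-3-phosphate dehydrogenase of mitochondria (76 and 367 bp), and Sugb (-31 and 258 bp).

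**Figure D4:**
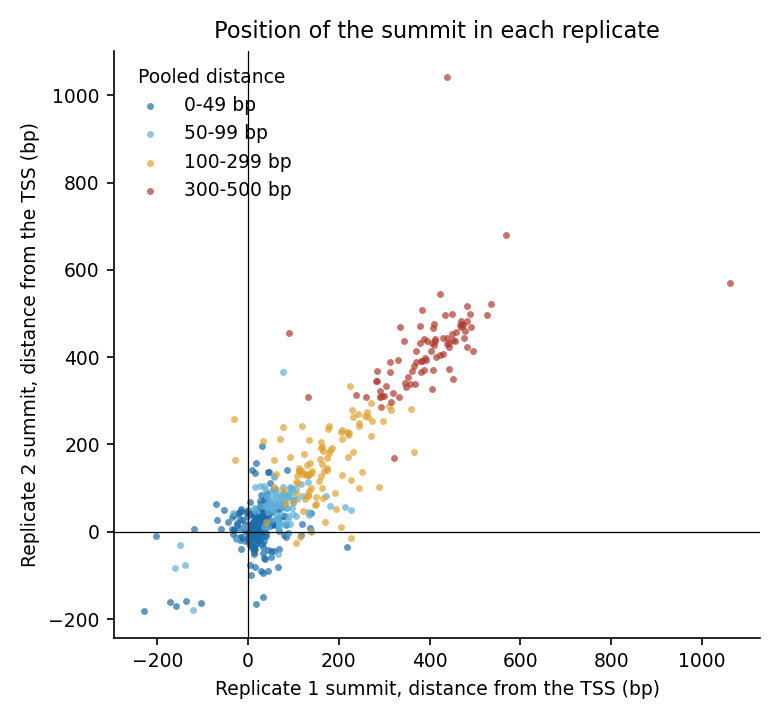
Distance of the summit from the TSS in replicate 1 (x axis, bp) and replicate 2 (y axis, bp) for 540 downstream summits, coloured by pooled distance. Most points lie along the diagonal, and points left of or under the zero lines are mainly from the 0 to 49 bp zone.

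Ranks by signal described strength in each replicate list of 30000 peaks. The downstream summits had a median rank of 3898 in replicate 1 and 3742 in replicate 2, and the upstream ones 3016 and 3009. Ranks beyond the length of the IDR list were found for 64 in replicate 1 and 60 in replicate 2. Across the 540 summits in both lists the ranks had a Spearman correlation of 0.69, a description over summits that share the same libraries. The IDR filter is itself designed to select for agreement of ranks. The 3 summits nearest the signal limit of the IDR list were those of CG5004 (142.03), wdp (142.06) and Axud1 (142.08), ranked 5829 to 7467 in replicate 1 and 5787 to 6994 in replicate 2.

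**Figure D5:**
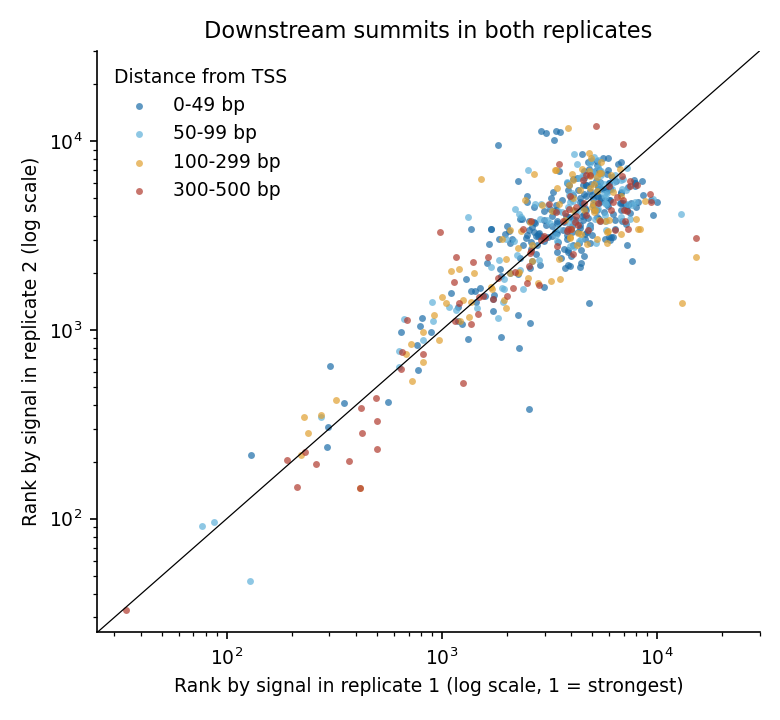
Rank by signal of 540 downstream summits in replicate 1 (x axis) and replicate 2 (y axis), both on log scales with 1 the strongest, coloured by distance from the TSS, with the line of equal rank. The strongest points, led by ph-p at 34 and 33, come from all zones.

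Among genes of the cytosolic ribosome, a downstream summit was found at 15 of 77 eligible ones (19.5%, 11.3 to 30.1), against 3.89% of all eligible protein-coding genes, and an upstream one at 26 of 53 (49.1%), against 15.7%. All 15 summits lay under 100 bp from the TSS and 13 under 50 bp, and their median signal was 430.2. After RpL24 and RpL30 the strongest were RpS15Aa (721, 16 bp), RpL27A (606, 10 bp), RpL26 (586, 74 bp, in an intron) and RpL39 (538, 5 bp). The weakest was RpS15 (224, 22 bp). The summit was downstream in both replicates at 10 of the 15, and RpL24, at 0 bp in the pooled list and in replicate 1, had it at -19 bp in replicate 2. The DRE was near 6 of the 15 and Motif 1 near 3. With summits at least 50 bp downstream, 2 ribosomal protein genes remained, with genes of 1 TSS position 4, and with windows of 1000 bp 5. None of 68 mitochondrial ribosomal protein genes had a downstream summit, which allows a share of up to 5.28% and so does not separate them from all eligible genes, while 5 of 19 had an upstream one.

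RNA-binding and splicing genes had downstream summits at 9 of 40 (22.5%, 10.8 to 38.5), against 3.89% of all eligible genes. Their upstream share was also above that of all eligible genes, at 13 of 31 (41.9%) against 15.7%. B52 had one at 5 bp (signal 522). Sex lethal (Sxl), the splicing regulator of sex determination, had one in an intron at 410 bp (462) and another at 33 bp (233). The gene of poly(A)-binding protein, pAbp, had one in an intron at 470 bp (399). The others were Hrb98DE, Rm62, tra2, Syp, Imp and heph, with signals of 148 to 243. Their summits ran from 1 bp at Imp to 484 bp at Syp.

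Chromatin and insulator genes had downstream summits at 11 of 79 (13.9%, 7.16 to 23.5), against 3.89% of all eligible genes, with a median signal of 200.1. An upstream summit was found at 15 of 44 (34.1%), also above the 15.7% of all eligible genes. After ph-p came Trl, which encodes GAGA factor (698, 133 bp), Ada2b of the SAGA complex (663, 390 bp, in an intron) and ash2 of the COMPASS complexes (284, 111 bp, in an intron). The acetyltransferase gene nej had one in an intron at 454 bp (226). Chro, Su(z)2, CTCF, mod(mdg4), lola and osa, of a SWI/SNF complex, had summits at 10 to 50 bp with signals of 151 to 211.

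Genes of signalling and hormone response had shares whose intervals include the 3.89% of all eligible genes. The Notch, Hippo, EGFR, Wnt, Hedgehog and JAK/STAT list had 5 of 59 (8.47%, 2.81 to 18.7): Stat92E, the JAK/STAT transcription factor (419, 352 bp), aop, an ETS repressor (301, 38 bp), mam, a Notch coactivator (280.2, 372 bp), arr, a Wnt co-receptor (198, 51 bp), and Socs36E, an inhibitor of JAK/STAT (179.9, 465 bp). Of these summits 3 of 5 lay at 300 to 500 bp. The ecdysone and nuclear receptor list had 3 of 26 (11.5%, 2.45 to 30.2), with 5 summits. Eip75B had 3 of them, at 29, 20 and 201 bp from the nearest of its starts (619, 277 and 162). The others were Eip63E (292, 309 bp) and Eip93F (145, 340 bp). The list as counted left out Eip63F-1, also ecdysone-induced, with a summit at 461 bp (1438). A share and interval with it were not computed. Besides Eip75B, the only other gene with more than 2 downstream summits was Amun, also with 3.

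For the patterning, neuronal, translation, respiratory, insulin and cell cycle lists that follow, every interval also includes 3.89%. Patterning factors had 5 of 73 (6.85%), led by cnc (896, 316 bp), hry (hairy, 336, 39 bp) and aop, and neuronal genes 3 of 37 (8.11%), Fas2 (409, 15 bp), shi, the dynamin gene (315, 39 bp), and KCNQ, a potassium channel gene (147, 5 bp). Translation factors had 4 of 54 (7.41%), led by eEF5 (433, 10 bp). Respiratory chain genes had 4 of 83 (4.82%), led by Cyt-c-p (262, 15 bp). Insulin and TOR genes had 2 of 21 (9.52%), sima, the hypoxia-inducible factor homolog (277, 23 bp), and Pdk1 (167, 53 bp). Cell cycle and replication genes had 1 of 54 (1.85%), CycT (331, 168 bp), although 18 of 39 had an upstream summit. The counts were 0 of 222 chemoreceptor and odorant-binding genes and 0 of 120 cuticle genes, which allow shares of up to 1.65% and 3.03%, under that of all eligible genes. They were also 0 of 49 proteasome, 0 of 31 aminoacyl-tRNA synthetase, 0 of 26 nuclear pore and 0 of 13 glycolysis genes, but these allow up to 7.25%, 11.2%, 13.2% and 24.7%, so a difference from all eligible genes was not detectable. Vacuolar ATPase genes had 2 of 34 (5.88%; VhaSFD and Vha13), heat shock chaperones 2 of 29 (6.90%; DnaJ-1 and stv), small GTPases 3 of 56 (5.36%; Rab32, Rab9 and Rab18) and autophagy and apoptosis genes 2 of 31 (6.45%; Diap1 and ref(2)P). There was 1 each among 70 genes of RNA polymerase II and its general factors (MED6), 81 cytochrome P450 genes (Cyp12a4), 13 clock genes (cyc) and 30 actin, tubulin and muscle genes (alphaTub84B). The intervals of these 8 lists include 3.89% too, and all of these summits lay under 100 bp from the TSS. Genes named only by a CG number had 133 of 5749 (2.31%, 1.94 to 2.74), an interval below 3.89%. Their upstream share was also below that of all eligible genes, at 465 of 4684 (9.93%) against 15.7%.

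A downstream and an upstream summit were found together at 100 genes. The strongest downstream summit exceeded the strongest upstream one at 38 of these, and the medians were 224 and 315. At ph-p both were strong, with 2994 at 441 bp and 2438 at -460 bp. At Cftr, egh and cnc the downstream summit was the stronger, with 1046 against 438, 975 against 221 and 896 against 188. CHES-1-like, a forkhead factor gene, had the reverse, with 622 at 152 bp and 1917 at -362 bp. Where a gene had several starts, each distance was taken from the TSS nearest the summit.

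By chromosome arm, downstream density was highest on X, with 122 summits at 100.04 per Mb of eligible sequence. It was 81.7 per Mb on 3L, 81.3 on 2R, 67.4 on 2L and 59.1 on 3R, and chromosome 4 had 2 summits. Upstream density was also highest on X, at 354 per Mb against 300.3 to 312 on the other 4 large arms. The downstream share of single-gene summits was 25.7% (21.9 to 29.9) on X, 25% on 2R, 24.8% on 3L, 21.2% on 2L and 19.0% (15.7 to 22.6) on 3R. The interval on X overlapped those on the other arms. X held 25 of the 86 summits at 300 to 500 bp (29.1%) and 54 of the 251 at 0 to 49 bp (21.5%).

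Summits lay on both sides of the 500 bp limit. Just inside it lay CG4911 (490 bp), tay (492 bp) and CG31612 (494 bp), with signals of 157, 336 and 977. Just outside lay 8 summits at 503 to 508 bp, with signals from 189 at chk to 1941 at aru.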

How the data were processed

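CG7101-GFP binding in whole adult females was measured in 2 replicates of 1 group. Per the labels, coordinates are those of dm6; they are printed counting from 1. The aligner, the caller and the IDR limit, not given in the sources used here, could change which peaks were listed. The control for peak calling was not analysed here. The deposited lists give, for each peak, the authors' signal, the −log10 q value (not used) and the offset of the summit. Replicate and pooled lists hold 30000 peaks each. Read depth is unknown from peak lists, so intervals cover counting error only.

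Genes and TSSs came from Ensembl release 115 without transposable elements, and sequence from RefSeq's copy of Release 6, after its arm lengths had been checked against dm6. Summits were the peak start plus the offset. Words (14) were sought within 100 bp on both strands, and 27 gene lists were counted over eligible genes. No test across samples was possible with 1 group. Members, lists and words were chosen with earlier results of these data known, and the zones and the forkhead word after values were seen. Named genes were the 25 strongest summits, the 3 strongest per list and per printed word, the 5 farthest from the TSS, the 3 nearest the signal limit and the 5 with replicate summits farthest apart; others were named after their values were seen, and some items under this rule are not reported here. Steps were tested on simulated data with planted positions and words. Software was pandas 2.3.3 and numpy 2.4.6 in Python 3.11.15, with intervals from scipy 1.17.1 and plots from matplotlib 3.10.9. Alternatives are given in the closing section.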

Additional observations from a re-analysis of the deposited data

How the results depend on the processing

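The 15 alternatives gave 270 values, of which 157 stayed close to the reported value and 113 moved; 56 of those that moved were shares of words other than the DRE and Motif 1. The causes were not tested, beyond what each setting changes by construction. No paired analysis was possible because there was 1 group. Signals of different lists are on different scales, so single replicates gave no median signal and, having no second list, no share on the same side. Depth is unknown from peak lists.

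Single-replicate lists gave 548 and 606 downstream summits, 23.1% and 25.7% of single-gene summits, median distances of 54 to 59.5 bp, ratios of downstream to upstream median signal of 0.81 to 0.847, DRE shares of 3.65% to 5.28% and Motif 1 shares of 4.20% to 5.28%. The stronger part of the IDR list by median gave 194 summits (17.2%), a median distance of 71 bp, a median signal of 375 (ratio 0.898), the same side in 82.5% and a 5' UTR location in 71.1%. The whole pooled list gave 2729 summits (34.2%), 99 bp, a signal of 66.5 (ratio 0.70), the same side in 53.4%, a 5' UTR in 69.1%, X in 18.1%, the DRE in 3.33% and Motif 1 in 3.08%. Windows of 250 bp gave a median of 39 bp, the same side in 70.7% and a 5' UTR in 91.3%. Windows of 1000 bp gave 29.7% downstream, a median of 309.5 bp, a signal of 225 (ratio 0.907), the same side in 86.8%, a 5' UTR in 49.6%, 5 ribosomal protein genes, the DRE in 3.54% and Motif 1 in 2.83%.

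Summits at least 50 bp downstream numbered 290 (13.8%), with a median of 145.5 bp, the same side in 94.5%, a 5' UTR in 58.6%, 2 ribosomal protein genes, the DRE in 2.41% and Motif 1 in 1.38%. Genes with 1 TSS position gave 194 summits (19.2%), 42.5 bp, a signal of 199, the same side in 71.1%, a 5' UTR in 81.4%, X in 17.01%, 4 ribosomal protein genes, the DRE in 10.3% and Motif 1 in 7.73%. The 5'-most TSS of each gene gave 27.8% downstream, a median of 75 bp and a 5' UTR in 81.4%. Words within 50 bp gave the DRE in 2.40%, and within 200 bp the DRE in 10.4% and Motif 1 in 8.50%. The nearest replicate summit in place of the strongest, chosen after seeing the data, gave the same side in 78.9%.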
